A study of Mus musculus with 12 samples.

Results

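The response to radiation of cells deprived of serine and glycine was measured in 6 of the 12 libraries of this series. These are the 3 libraries labelled as irradiated without both amino acids (IR -SG, replicates 4, 5 and 6), set against the 3 labelled as not irradiated in the same medium (-SG, replicates 4, 5 and 6). All 12 libraries were made from the mouse mammary carcinoma line 4T1, which the study describes as p53 null, in one experiment in biological triplicate. IR -SG cells had 5 Gy of X-rays, -SG cells had none, both were kept in medium lacking serine and glycine with dialysed serum, and RNA was taken at 24 h. The other 6 libraries, cells in the same base medium with serine and glycine, without radiation (Ctr) or with 5 Gy (IR), served to ask whether the response differed between the media. Every gene of the table entered. Protein-coding genes that reached 10 normalized counts in 3 or more of the libraries were tested, 11663 in all. A normalized count is the number of reads of a gene divided by 1 size factor per library.

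Ionising radiation breaks DNA, and cells answer by pausing in the cell cycle and repairing the breaks. Breaks and the DNA fragments left by faulty division can also switch on NF-kB, a family of inflammatory transcription factors, and the interferon pathway, which senses nucleic acids in the wrong place. Serine and glycine feed nucleotide, glutathione and one-carbon metabolism, and cells that lack an amino acid raise ATF4, a transcription factor that turns on genes for amino acid synthesis and uptake. The question put to these libraries was what radiation adds in cells that are already starved. Here a fold change compares IR -SG with -SG on the scale of log2(normalized count + 1), with its standard error (SE), from a limma fit of all 4 groups, and the adjusted p is that of limma over all tested genes. Rose and fell are used for an adjusted p under 0.05.

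Reads in genes numbered between 12540160 and 20066659 in the 6 libraries. All 12 epithelial carcinoma markers were detected, with Krt8 at 20414 ± 1524 (SD, n = 3) normalized counts in -SG cells, while the summed level of the leukocyte markers was between 50 and 63.1 in -SG and between 79.7 and 103 in IR -SG cells, with Tyrobp at 0 in all 6. One library stood apart. Differences between -SG replicate 6 and the other -SG libraries followed the GC content of the transcripts (Spearman's rho 0.41 and 0.55 across genes) and, inversely, their length (-0.44 against each). The counts of the lists that moved most are therefore also given without -SG replicate 6. Weaker ties to GC content were seen between -SG replicates 4 and 5 (rho -0.31) and between IR -SG replicate 6 and replicates 4 and 5 (-0.26 and -0.30). Between IR -SG replicates 4 and 5 rho was 0.072.

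Radiation moved a large part of the transcriptome of starved cells, mostly by a little. Of 11663 genes, 2777 rose (23.8%) and 2251 fell (19.3%). The median change was 1.26-fold among those that rose and 1.19-fold among those that fell, and only 225 rose and 16 fell by at least 2-fold. The genes that rose had longer transcripts (median 3909 bases for the longest transcript) than those that fell (2960 bases), against 3430 bases over all tested genes. These medians were not recomputed without -SG replicate 6, so its part in them was not tested. The change of single IR -SG libraries followed transcript length against that library (rho between 0.32 and 0.35). Against -SG replicates 4 and 5 it hardly did (between 0.014 and 0.080). The genes that rose had a lower level before radiation, with a median of 561 normalized counts in -SG cells against 1094 for the genes that fell. Without -SG replicate 6, 5482 genes were called in place of 5028. The counts of genes that rose or fell in each list of genes by function are to be read against these 2 shares.

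**Figure D1:**
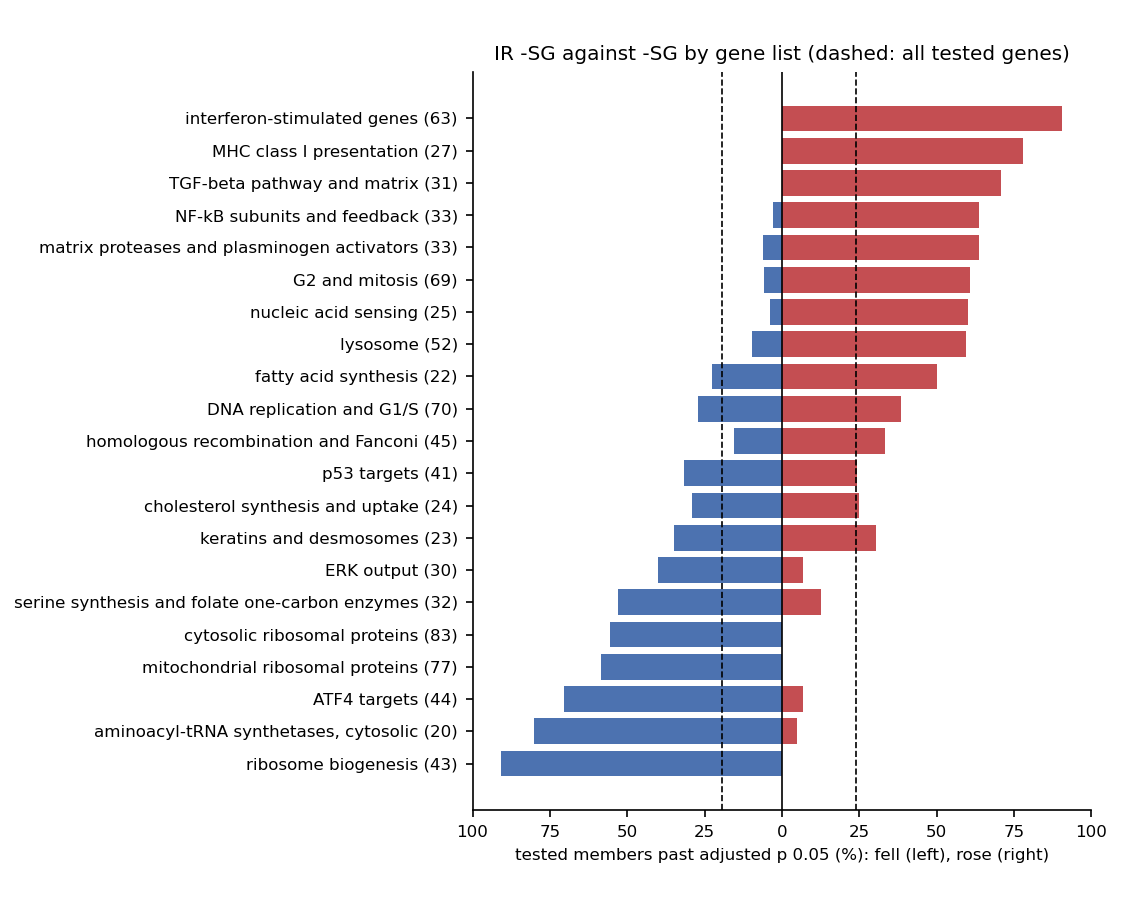
Share of the tested members of 21 gene lists that rose (right) or fell (left) in IR -SG against -SG cells at an adjusted p under 0.05, with the number of tested members in brackets and dashed lines at the shares over all tested genes (23.8% and 19.3%). Interferon-stimulated genes stand at the top with 57 of 63 risen and ribosome biogenesis at the bottom with 39 of 43 fallen.

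Icam1 and C3 were among the largest rises. Icam1, the adhesion molecule that leukocytes bind, was at 114, 101 and 94.1 in -SG and 383, 385 and 334 in IR -SG cells, a 3.54-fold rise (log2 1.82 ± 0.097, adjusted p = 2.5e-09). C3, the central complement protein, was at 406, 386 and 357 in -SG and 1368, 1309 and 1321 in IR -SG cells, 3.48-fold higher (adjusted p = 9.3e-12). For both genes the lowest irradiated library was above the highest unirradiated one by a wide gap, as the plot of counts in each library shows. Nos2, which makes nitric oxide, rose 4.11-fold from a mean of 29.2 ± 5.24 to 123 ± 13.9 (SD, n = 3), the largest rise among genes whose higher group averaged 100 normalized counts or more. The other genes among the 15 largest rises were Cdhr1 (3.47-fold), Adamts4 (2.96-fold), Zbp1 (2.93-fold), Sorbs3 (2.89-fold), Plat (2.76-fold), Slc15a3 (2.64-fold), Lsp1 (2.63-fold), Scube3 (2.59-fold), Neurl3 (2.57-fold), Olfml2b (2.56-fold), Rrad (2.55-fold) and Tns1 (2.53-fold). Adamts4 and Plat encode extracellular proteases, Zbp1 a sensor of Z-form nucleic acid, and Slc15a3 a lysosomal peptide transporter used in innate sensing.

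**Figure D2:**
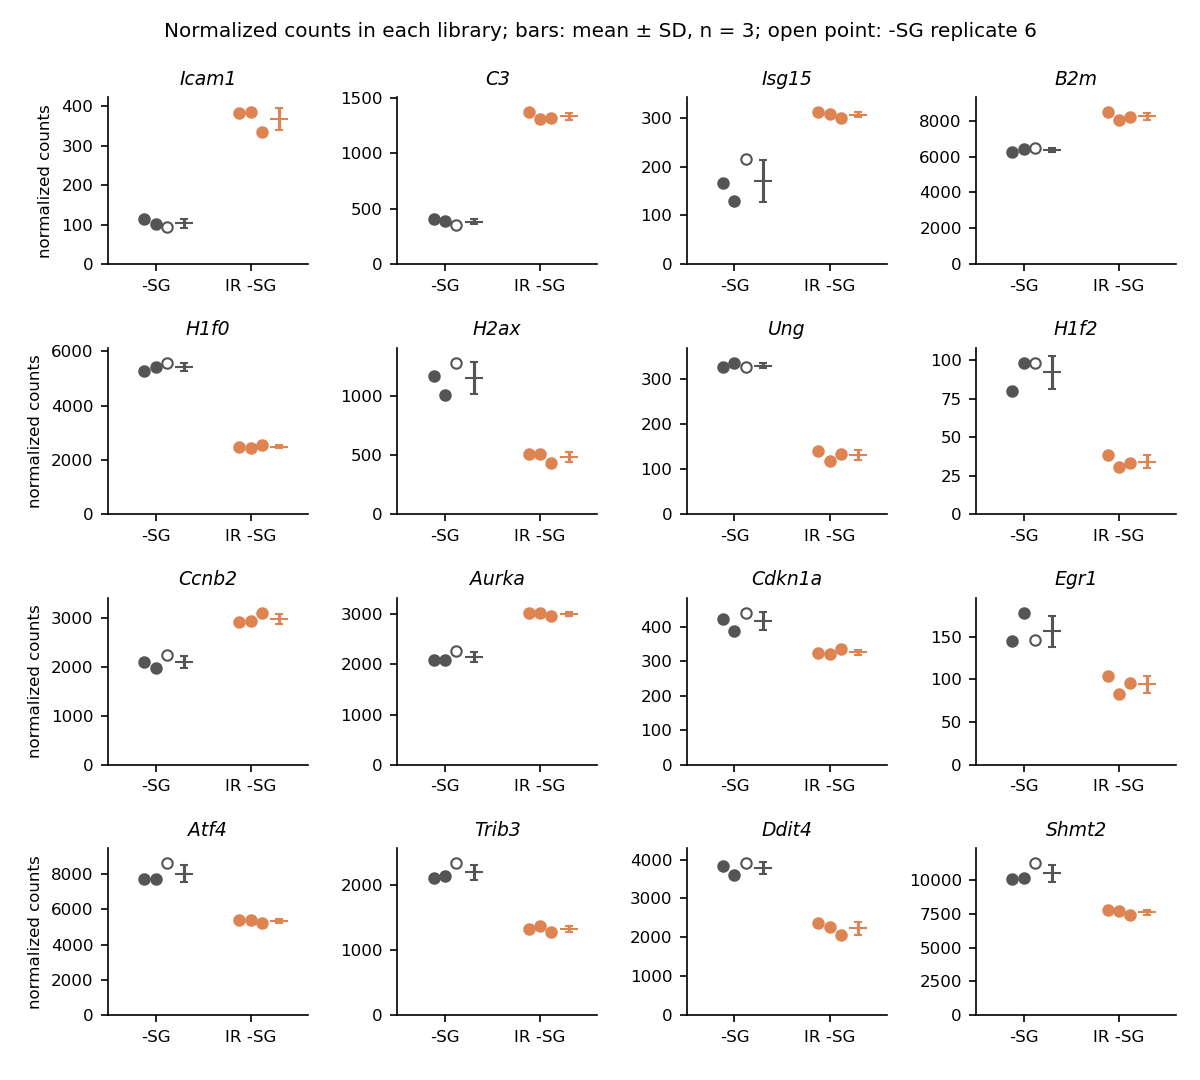
Normalized counts (vertical axes, from 0) of 16 genes in each -SG (grey) and IR -SG (orange) library, with the mean ± SD of each group (n = 3) to the right of its points and -SG replicate 6 as an open point. In none of the 16 panels do the 2 groups overlap, which also held for 5771 of the 11663 tested genes (49.5%). Several of the 16 were named by a rule that asks for no overlap. In many panels, such as Isg15, H2ax, Atf4 and Trib3, -SG replicate 6 was the highest -SG library.

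Interferon-stimulated genes rose almost as a block. Of 63 tested members, 57 rose and 0 fell, with a median log2 change of 0.44 against 0.012 over all tested genes. Isg15, a ubiquitin-like protein that is conjugated to other proteins in the antiviral state, was at 166, 129 and 217 in -SG and 312, 308 and 301 in IR -SG cells (1.83-fold, adjusted p = 4.9e-05). Its -SG libraries spread more than its irradiated ones, but the groups did not overlap. Zbp1 was at 46.6, 35.8 and 35.3 in -SG and 108, 107 and 135 in IR -SG cells, and Irf7, the transcription factor that amplifies interferon output, rose 2.03-fold (log2 1.02 ± 0.23). Rsad2 (viperin, 2.03-fold), Ifit1, which binds viral RNA (1.98-fold), Ifi44 (1.74-fold) and the guanylate-binding protein Gbp3 (1.72-fold) rose too. These are genes of low to moderate level, since Rsad2 was at 21.9 ± 3.11 normalized counts (SD, n = 3) before radiation. Without -SG replicate 6, 56 of the 63 rose.

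The textbook element of this list was looked for in its promoters. The interferon-stimulated response element was searched as its core, GAAA then any 2 bases then GAAA, on both strands in the 250 bases before each start site of RefSeq (GRCm38.p6), where matches of the same or of different motifs may overlap. It was found in 21 of 68 promoters of 53 genes of the list (30.9%) and in 2.58% of the 11989 promoters that matched 9348 of the 11663 tested genes. Over the promoters of all genes that rose the share was 3.16%. The share in the list describes genes chosen as interferon-stimulated and is not a result of these libraries. The stretches around the matches of 4 genes that rose are given 5′ to 3′ on the gene's strand with the matches in capitals, to show the letters themselves. Isg15 (chr4:156200860-156200911, minus strand) carries 3 matches that overlap, and Ifit1 (chr19:34640770-34640828, plus strand), Rsad2 (chr12:26456548-26456587, minus strand) and Cxcl10 (chr5:92349078-92349117, minus strand) carry 2, 1 and 1.
Isg15: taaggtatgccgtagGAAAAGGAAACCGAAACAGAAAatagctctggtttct
Ifit1: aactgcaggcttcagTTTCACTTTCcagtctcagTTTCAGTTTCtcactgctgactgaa
Rsad2: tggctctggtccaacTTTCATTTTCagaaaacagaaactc
Cxcl10: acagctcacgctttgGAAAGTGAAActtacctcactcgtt
A match is a run of letters and was not tested as a site.

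Genes that present peptides to T cells moved with them. Of 27 tested genes of MHC class I presentation, 21 rose and 0 fell (median log2 0.34). B2m, the light chain of every class I molecule, was at 6253, 6435 and 6465 in -SG and 8463, 8054 and 8201 in IR -SG cells, a 1.29-fold rise with hardly any spread (log2 0.37 ± 0.034). Psmb9 (1.84-fold) and Psmb8 (1.34-fold), subunits of the immunoproteasome, and Tapbp (1.34-fold) and Tapbpl (1.57-fold), which load peptides, rose as well. The class I heavy chain gene H2-Q4 rose 1.34-fold, although reads of near-identical class I genes cannot be assigned with certainty. Among 18 genes by which immune cells recognise or spare a tumour cell 10 rose and 0 fell. Lgals9, galectin-9, was at 229, 206 and 231 in -SG and 496, 499.5 and 475 in IR -SG cells (2.21-fold). One MHC class I gene fell without -SG replicate 6.

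The sensors upstream were less uniform. Of 25 genes of nucleic acid sensing 15 rose, among them Ddx58, the RNA sensor RIG-I (1.48-fold), and Sting1, the adaptor of the DNA sensor (1.41-fold). The sensor itself, Cgas, was at 398, 374 and 314 in -SG and 338, 311 and 343 in IR -SG cells, with overlapping libraries and an adjusted p of 0.22. Irf3, the factor that Sting1 activates, fell 1.13-fold (adjusted p = 0.039), a call that was lost without -SG replicate 5 or 6, IR replicate 3 or IR -SG replicate 4 or 6, where the adjusted p lay between 0.05 and 0.21. Of 13 genes for interferon receptors and their signalling 7 rose, such as Irf5 (1.91-fold) and the receptor kinase Jak2 (1.54-fold), and 2 fell. The 13 come from a list of 20. The members absent from the deposited counts, Ifnb1 and Ifng among them, were all interferon genes.

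NF-kB genes rose with them. Of 33 subunits, regulators and feedback targets 21 rose and 1 fell (median log2 0.29), and without -SG replicate 6 23 rose and 2 fell. Nfkbie, an inhibitor that NF-kB itself induces, was at 840.0, 708 and 778 in -SG and 1357, 1300.3 and 1281 in IR -SG cells (1.70-fold, adjusted p = 4.9e-08). Vcam1, another adhesion molecule, was at 1168, 1175 and 1140.4 in -SG and 1764, 1692 and 1796 in IR -SG cells (1.51-fold). Tnfrsf1b, a TNF receptor (1.56-fold), Bcl3, a nuclear partner of the p50 and p52 subunits (1.71-fold), Cd40 (1.77-fold), Tnip1 (1.42-fold) and Birc3, an inhibitor of cell death (1.40-fold), rose in the same libraries. The single fall was Sod2, the mitochondrial superoxide dismutase (log2 -0.19 ± 0.04). The kappa-B core, GGG then any 3 bases then TTCC, was present on either strand in 13 of 36 upstream parts of the list (36.1%) against 5.27% over tested genes. Over all genes that rose it was in 5.99%. The matches of 3 members that rose, Nfkb2 (1.16-fold, chr19:46304684-46304736, plus strand), Nfkbia (1.27-fold, chr12:55492652-55492691, minus strand) and Tnfaip3 (1.20-fold, chr10:19015411-19015437, minus strand), all feedback genes of this pathway, are in capitals.
Nfkb2: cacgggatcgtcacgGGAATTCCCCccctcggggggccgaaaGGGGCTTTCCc
Nfkbia: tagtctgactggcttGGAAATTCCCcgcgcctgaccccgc
Tnfaip3: actggaatttccatcGGAAATCCCCct

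Secreted signals split into those that rose and those that did not. Of 22 chemokines and growth factors of myeloid cells 9 rose and 3 fell. Cx3cl1, a membrane-bound chemokine, was at 909, 823 and 859 in -SG and 1981, 1848 and 1831 in IR -SG cells, 2.18-fold higher (adjusted p = 1.7e-10). Csf1, the macrophage growth factor, rose 1.37-fold from 6358 ± 31.0 normalized counts (SD, n = 3), and Ccl5 (1.69-fold), Cxcl10 (1.64-fold) and Ccl2 (1.47-fold) rose from low levels, Ccl2 no longer passing with quantile normalization (adjusted p = 0.14). Tslp, a cytokine of epithelial cells, fell 1.46-fold from 339, 391 and 323 to 242, 219 and 259.7. The other falls were those of the cytokine Lif (log2 -0.27 ± 0.046) and of Cxcl1, a neutrophil chemokine (log2 -0.25 ± 0.096, adjusted p = 0.044), a call that was lost without any of 8 single libraries. Cxcl5, which draws neutrophils too, was at 310.2, 289.8 and 270.4 in -SG and 287, 308 and 304 in IR -SG cells, with overlapping groups, and Il1a, an alarm cytokine, at 177, 182 and 164 in -SG and 169.9, 136 and 149 in IR -SG cells (adjusted p = 0.69 and 0.092). Genes that act on interleukin-1 rose in the meantime, with Casp1, which matures it, at 1.70-fold and Gsdmd, the pore protein of its release, at 1.66-fold, among 8 of 15 in that family.

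Histone genes were among the deepest falls. H1f0, the linker histone of slowly dividing cells, was at 5253, 5414 and 5574 in -SG and 2495, 2438 and 2542 in IR -SG cells, a 2.17-fold fall and the most precise of these (log2 -1.12 ± 0.032, adjusted p = 2.2e-12). H2ax, the histone variant that is phosphorylated at DNA breaks, was at 1169, 1009 and 1279 in -SG and 506, 507 and 435 in IR -SG cells and fell 2.38-fold (adjusted p = 1.1e-08). For both, all irradiated libraries lay far below all unirradiated ones. H1f2, a linker histone gene with replication-dependent expression, went from 79.9, 98.3 and 98.3 to 38.6, 30.7 and 33.4 (2.64-fold). Of the 34 replication-dependent histone genes in the list 5 were high enough to test, of which 3 fell, namely H1f2, H4c9 (2.01-fold) and H2aw (1.93-fold), the last no longer passing with DESeq2 on the recovered reads (adjusted p = 0.066). H2bc4 and H2bc21 had log2 changes of -0.69 ± 0.30 and -0.45 ± 0.21 that did not pass. Histone genes are close copies of each other, so that reads may have been split between them. Of the 5 tested replication-dependent genes, all but H1f2 had means under 40 normalized counts.

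Ung, the glycosylase that removes uracil from DNA, fell most among genes of at least 100 normalized counts. Its libraries read 327, 337 and 328 in -SG and 142, 119 and 135 in IR -SG cells, a 2.5-fold fall (log2 -1.32 ± 0.074, adjusted p = 3.9e-09). Of 25 tested genes of base excision and mismatch repair 1 rose and 4 fell, with a median log2 of -0.067, and 1 or 2 fell without -SG replicate 4 or 5 or without IR -SG replicate 6. Stag1, a subunit of the cohesin ring that holds sister chromatids together, fell 1.86-fold from 1383, 1455 and 1202 to 696, 692 and 777. The rest of the 15 largest falls were Atp5g2 (2.41-fold), a gene with many processed copies and widely spread libraries (273, 314 and 181 in -SG and 94.4, 87.2 and 133 in IR -SG cells), then Otud1 (1.78-fold), Eef2kmt (1.75-fold), Mogs (1.73-fold), Ddit4 (1.70-fold), Stc2 (1.69-fold), Epha8 (1.67-fold), Syt7 (1.67-fold), Trib3 (1.66-fold), Egr1 (1.65-fold) and Adprh (1.65-fold).

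Genes of G2 phase and mitosis were higher, not lower, in the irradiated starved cells at 24 h. Of 69 tested, 42 rose (60.9%) and 4 fell, with a median log2 of 0.16. Ccnb2, a cyclin that drives entry into mitosis, was at 2098, 1979 and 2240.2 in -SG and 2925, 2936 and 3107 in IR -SG cells (1.42-fold, adjusted p = 2.3e-07). Aurka, the kinase of the spindle poles, was at 2087, 2099 and 2265 in -SG and 3024, 3024 and 2959 in IR -SG cells (1.40-fold). Neither pair of groups overlapped, and both rises were under 1.5-fold, as were all in this list. The motor protein Kif20a (1.39-fold), the midzone protein Prc1 (1.35-fold), Nusap1 (1.31-fold), the kinetochore protein Cenpf (1.29-fold), Ccnb1 (1.28-fold), the phosphatase Cdc25b (1.29-fold) and the checkpoint kinase Bub1b (1.27-fold) rose with them. The 4 that fell were Smc4 (log2 -0.25), Pbk (-0.20), Lmnb1 (-0.16) and Stmn1 (-0.15). Without -SG replicate 6, 43 rose and 5 fell (median 0.13), and the Stmn1 call was lost (adjusted p = 0.12). The Stmn1 call was lost without any single IR -SG library too, and that of Smc4 without -SG replicate 4 or 5 or IR -SG replicate 5. The libraries do not tell more cells in G2 or mitosis from more RNA of these genes per cell.

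Promoters of this class are known for CCAAT boxes, bound by NF-Y, and for the cell cycle genes homology region (CHR), bound by the DREAM and MuvB complexes. CCAAT on either strand was in 43 of 61 upstream parts (70.5%) against 35.4% over tested genes. The CHR, TTTGAA or TTCGAA on either strand, was in 22 of them (36.1% against 12%), and in 67.2% against 13.7% once the 50 bases after the start were included. Over all genes that rose the upstream shares were 36.7% for CCAAT and 12.3% for the CHR. Shown with matches in capitals, to illustrate their spacing, are Ccnb2 (chr9:70421556-70421736, minus strand), Cdc20 (chr4:118437344-118437411, minus strand), Ccnb1 (chr13:100786534-100786600, minus strand) and Aurka (chr2:172370571-172370636, minus strand), all of which rose (Cdc20 1.15-fold).
Ccnb2: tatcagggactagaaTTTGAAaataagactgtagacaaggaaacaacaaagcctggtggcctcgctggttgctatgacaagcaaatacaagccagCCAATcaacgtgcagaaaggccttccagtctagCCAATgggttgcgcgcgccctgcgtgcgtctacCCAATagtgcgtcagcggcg
Cdc20: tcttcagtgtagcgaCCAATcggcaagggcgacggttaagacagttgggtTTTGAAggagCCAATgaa
Ccnb1: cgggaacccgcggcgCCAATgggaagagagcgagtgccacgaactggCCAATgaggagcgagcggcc
Aurka: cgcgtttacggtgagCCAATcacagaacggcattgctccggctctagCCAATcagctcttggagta
The Ccnb2 stretch holds 1 CHR and 3 CCAAT boxes, that of Cdc20 holds 1 and 2, and those of Ccnb1 and Aurka hold 2 CCAAT boxes each.

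DNA replication genes went both ways. Of 70 tested 27 rose and 19 fell (median log2 0.037), shares of 38.6% and 27.1%. The rises included the transcription factor E2f1 (1.39-fold), the origin protein Orc1 (1.37-fold) and the helicase subunits Mcm3 (1.24-fold), Mcm4 (1.23-fold) and Mcm5 (1.19-fold). Mcm5 was at 8959, 8840.3 and 9541 in -SG and 10919.7, 10797 and 10742 in IR -SG cells. Among the falls were the nuclease Dna2 (1.53-fold) and Ccne2, the cyclin of entry into S phase (1.42-fold). Homologous recombination and Fanconi genes counted 15 risen and 7 fallen of 45, with Brca1 at 1611, 1603 and 1419 in -SG and 1889, 1944 and 1910.2 in IR -SG cells (1.24-fold), Rad54l 1.29-fold and Fancg 1.48-fold higher. The falls of that list numbered 3 without IR -SG replicate 4 and 4 without -SG replicate 5 or without IR -SG replicate 5. End joining and nucleotide excision repair moved little, with 3 risen and 3 fallen of 19 and 3 and 3 of 20, although 5 end joining genes fell without -SG replicate 6.

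The p53 targets did not rise as a list. Cdkn1a, which encodes the inhibitor p21 and is the best known p53 target, fell 1.27-fold in starved cells, from 425, 387 and 440.3 to 324, 321 and 335 (log2 -0.35 ± 0.062, adjusted p = 2.8e-04). Mdm2, the ubiquitin ligase of p53, was at 1187, 1233 and 1098 in -SG and 1096, 1187 and 1194 in IR -SG cells with overlapping groups (log2 -0.016 ± 0.05), and Trp53 itself at 904, 895 and 966 in -SG and 840.3, 872 and 862 in IR -SG cells (adjusted p = 0.097). Across 41 tested p53 targets 10 rose (24.4%) and 13 fell (31.7%), the first close to the share over all genes, but with upper quartile scaling 15 rose and 10 fell. The death receptors Fas (1.93-fold) and Tnfrsf10b (1.38-fold) were among those that rose, and Bbc3 (PUMA, 1.27-fold) and Sesn2 (1.24-fold) among those that fell, the Bbc3 call being lost after the GC and length correction (adjusted p = 0.069) and the Sesn2 call without IR -SG replicate 6 (adjusted p = 0.063). Genes of growth arrest and senescence fell more often than they rose, 11 against 5 of 20. The G1 cyclins Ccnd2 (1.42-fold) and Ccnd1 (1.20-fold) fell too, Ccnd1 from 13850.3, 13825 and 13179 to 11737, 11329 and 10902.

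Genes of the amino acid response fell after radiation. Atf4 was at 7741, 7758 and 8611 in -SG and 5426, 5399 and 5228 in IR -SG cells, a 1.5-fold fall (log2 -0.59 ± 0.04, adjusted p = 3.3e-08). Of 44 ATF4 targets 31 fell (70.5%) and 3 rose, with a median log2 of -0.32, and without -SG replicate 6 the counts were 31 and 3. The fall was not particular to starved cells. In IR against Ctr cells 23 of the 44 fell and 12 rose (median log2 -0.22), where 24.9% of all genes fell and 28.9% rose. Ddit4, an inhibitor of mTORC1, was at 3838, 3607 and 3900.1 in -SG and 2373, 2266 and 2059 in IR -SG cells (1.70-fold). Trib3, a pseudokinase that feeds back on ATF4, was at 2117, 2140.1 and 2335 in -SG and 1323, 1368 and 1287 in IR -SG cells (1.66-fold). No irradiated library reached the lowest unirradiated one in any of the 3. In Ctr cells Atf4 was at 5946, 6259 and 6145 and Trib3 at 492, 560.1 and 540.1, so that Trib3 stayed above its level in fed cells. Stc2 (1.69-fold), the cystine transporter gene Slc7a11 (1.41-fold), the glutathione-degrading enzyme Chac1 (1.33-fold) and asparagine synthetase, Asns (1.21-fold), fell as well. One of the targets that rose was Nupr1, a stress-induced nuclear protein (1.33-fold). Ppp1r15a, which ends the response by dephosphorylating eIF2, fell 1.34-fold. The C/EBP-ATF element, searched as TGATGNAA on both strands, was in 11 of 44 upstream parts of the list (25% against 1.94% over tested genes). Over all genes that fell it was in 1.82%. The element is shown here for Asns (chr6:7693210-7693247, minus strand) and Chac1 (chr2:119351034-119351071, plus strand) in capitals.
Asns: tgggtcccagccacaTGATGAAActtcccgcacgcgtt
Chac1: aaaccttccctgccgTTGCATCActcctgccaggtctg

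Enzymes that handle serine and one-carbon units fell in part. Of 32 tested, 17 fell and 4 rose, or 2 without -SG replicate 5 or IR -SG replicate 4. Shmt2, the mitochondrial enzyme that turns serine into glycine, was at 10069.6, 10169 and 11227 in -SG and 7752, 7684 and 7392 in IR -SG cells (1.38-fold, adjusted p = 3.4e-07), and Mthfd2, the next step of the mitochondrial pathway, at 4619, 4772 and 4899 in -SG and 3475, 3308 and 3342 in IR -SG cells (1.41-fold). Phgdh, the first enzyme of serine synthesis, was at 5931, 5869 and 6712 in -SG and 5989, 5823 and 5828 in IR -SG cells, with overlapping libraries (adjusted p = 0.22). Purine synthesis counted 10 falls and 4 rises of 25 and pyrimidine synthesis 13 and 3 of 27, so that 40% and 48.1% fell. The TCA cycle counted 6 and 2 of 25, where the 24% that fell were near the 19.3% over all tested genes. The falls of purine synthesis numbered 6 without IR -SG replicate 5, and those of the TCA cycle 3 without IR -SG replicate 4 or 5. Nfe2l2, the factor NRF2 of the antioxidant response, was at 1673, 1743 and 1741 in -SG and 1701, 1594 and 1649.5 in IR -SG cells (adjusted p = 0.25), and 12 of its 42 tested targets rose and 11 fell.

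Genes of protein synthesis fell. Of 43 genes of ribosome biogenesis 39 fell and 0 rose (median log2 -0.27). Rrs1, an assembly factor of the large subunit, was at 1959.6, 1969 and 2009 in -SG and 1466, 1301 and 1256 in IR -SG cells (1.48-fold). Wdr12 (1.40-fold) and the nucleolar proteins Nop58 (1.36-fold) and Fbl, fibrillarin (1.32-fold), fell likewise. The charging enzymes of transfer RNA followed, with 16 of 20 cytosolic synthetase genes fallen, led by those for threonine (Tars, 1.31-fold) and serine (Sars, 1.31-fold). The single rise among them was Qars, the glutamine enzyme (1.22-fold). Without -SG replicate 6 the falls numbered 38 and 15. Both lists fell in fed cells as well (IR against Ctr). There 37 of the 43 biogenesis genes and 16 of the 20 synthetase genes fell, with median log2 changes of -0.30 and -0.23. The synthetase median in starved cells was -0.18.

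Counts of ribosomal protein genes moved with single libraries, and not only with the library that stands apart. Of 83 cytosolic ones 46 fell and 0 rose (median log2 -0.18), whereas without -SG replicate 6 40 fell and 6 rose (median -0.11). Of 77 mitochondrial ones 45 fell, and 31 without that library. Nuclear genes of the respiratory chain counted 28 falls of 88 with all libraries and 20 falls and 5 rises without it, and 18 falls without IR -SG replicate 5. Its mitochondrially encoded genes went from 4 rises and 0 falls of 13 to 3 and 4, and 2 and 1 rose without IR -SG replicates 5 and 6, so that no direction is given for them. Ribosomal protein genes have many processed copies, and length and GC content moved with that library. After a correction for both, 38 cytosolic ribosomal protein genes fell and 4 rose. Without IR -SG replicates 4, 5 and 6 in turn, 42, 35 and 40 cytosolic ribosomal protein genes fell, and 35, 33 and 36 mitochondrial ones. Without -SG replicates 4 and 5 in turn the cytosolic falls numbered 52 and 54, and the mitochondrial falls 44 each time.

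**Figure D3:**
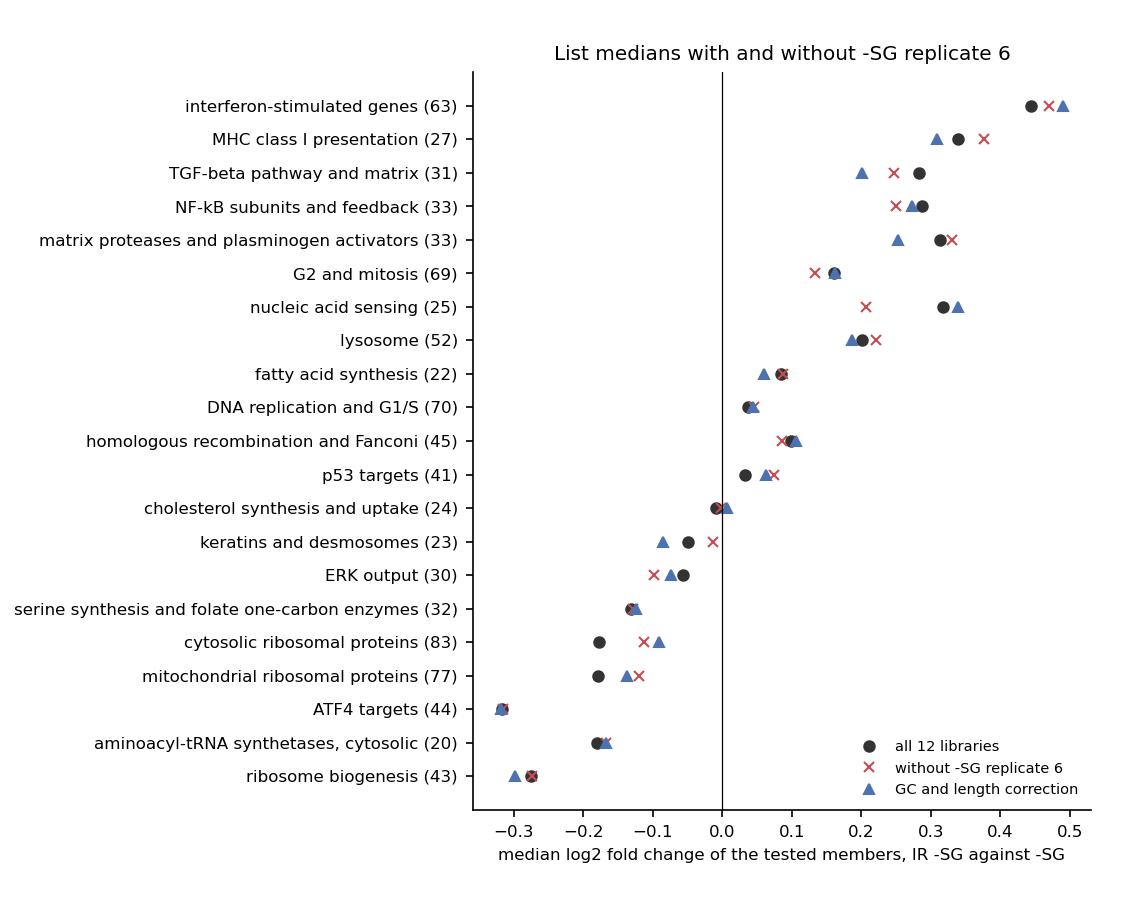
Median log2 fold change of the tested members of 21 gene lists in IR -SG against -SG cells (horizontal axis) with all 12 libraries (circles), without -SG replicate 6 (crosses) and after correction for GC content and transcript length (triangles). The medians of ATF4 targets stayed at -0.32 in all 3, while that of the cytosolic ribosomal proteins moved from -0.18 to -0.11 and -0.091.

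Genes of the extracellular matrix and its turnover rose. Of 33 matrix proteases, plasminogen activators and their inhibitors 21 rose and 2 fell. Mmp9, a gelatinase, was at 913, 955 and 982 in -SG and 2222, 2059 and 1993 in IR -SG cells (2.20-fold, adjusted p = 7.7e-11). Plat, the tissue plasminogen activator, was at 75.9, 71.6 and 63.1 in -SG and 200.4, 179 and 207 in IR -SG cells (2.76-fold), and the sheddase Adam8 rose 1.73-fold. Adamts1 was 1 of the 2 falls, from 2919, 2925 and 2843 to 2286, 2191 and 2270.2 (1.29-fold lower). Of 31 genes of TGF-beta signalling and the matrix it controls 22 rose and 0 fell (2 fell without -SG replicate 6), among them fibronectin, Fn1, one of the most abundant transcripts, at 36754, 36863 and 34361 in -SG and 46599.7, 48534 and 44022 in IR -SG cells (1.29-fold), the laminin chains Lama3 (1.70-fold) and Lamb3 (1.53-fold), and Ltbp2 (1.70-fold). Lysosomal genes counted 31 rises and 5 falls of 52, such as the hydrolases Manba (1.83-fold) and Ctsh (1.43-fold) and the sterol carrier Npc2 (1.33-fold). The summed level of the fibroblast marker genes, some of which are matrix genes, was between 609.6 and 704 in -SG and between 923 and 954 in IR -SG libraries, and its part in these counts was not tested.

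Targets of growth factor signalling fell more often than they rose. Of 30 genes that report activity of the kinase ERK 12 fell and 2 rose. Egr1, an immediate early gene, was at 145, 177 and 145 in -SG and 103, 83.3 and 95.4 in IR -SG cells (1.65-fold lower, adjusted p = 4.4e-05), and Myc at 4911, 5179.6 and 5440.2 in -SG and 4117, 4109 and 3821 in IR -SG cells (1.29-fold lower). Jund (1.41-fold) and Fosl1 (1.38-fold), subunits of AP-1, fell. The 2 rises were those of the feedback inhibitors Spry1 (1.24-fold) and Dusp4 (1.14-fold), the second lost without IR -SG replicate 4 (adjusted p = 0.055). Krt14, a keratin of basal epithelium, was at 15767, 15615 and 17589 in -SG and 13574, 13333 and 13429 in IR -SG cells (1.21-fold lower), and Krt19 fell 1.24-fold. Of 23 keratins and desmosome genes 7 rose and 8 fell, and 5 fell without -SG replicate 6 or without IR -SG replicate 6.

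The same dose in fed cells moved largely the same genes, and by more. In IR against Ctr cells 3369 genes rose (28.9%) and 2899 fell (24.9%). The 2 comparisons share no library. Their log2 fold changes correlated at r = 0.75 across 11663 genes, which are not independent, and the root mean square change was 0.35 without and 0.52 with serine and glycine. Of the genes that rose in starved cells 75.9% also rose in fed cells, which is 62.6% of those that rose in fed cells. Of those that fell 73.9% fell in both (57.4% of the fed falls). Opposite calls were few, 39 genes up in starved and down in fed cells and 45 the reverse.

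**Figure D4:**
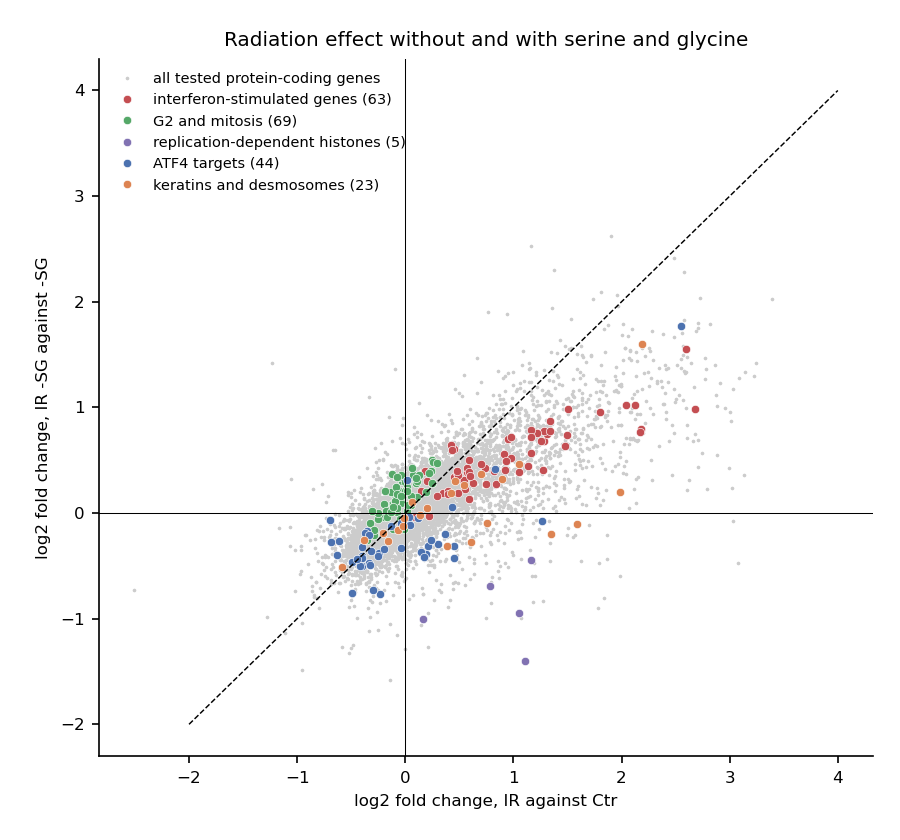
Log2 fold change after 5 Gy of the 11663 tested genes (grey) without serine and glycine (vertical axis) against that with them (horizontal axis), with 5 gene lists in colour and a dashed line where both are equal. Most interferon-stimulated genes (red) lie below the line and most G2 and mitosis genes (green) above it. The 5 replication-dependent histone genes (purple) lie below zero on the vertical axis only.

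The difference itself, the effect in starved less that in fed cells, was tested in the same fit. It was above zero for 490 genes (4.20%) and below zero for 836 (7.17%) at an adjusted p under 0.05. Most of the 836 were genes that rose in fed cells and rose less (413) or did not pass the threshold (299) in starved cells. Of the 490, 221 fell in fed cells alone and 139 rose in starved cells alone. With upper quartile scaling they were 285 and 865. The counts also moved with single libraries. Without -SG replicate 6 there were 847 and 1207. The higher group also fell to 301 without Ctr replicate 1, 314 without Ctr replicate 2, 311 without IR replicate 2, and 321 and 311 without IR -SG replicates 4 and 5.

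The mitosis list held many differences above zero. In fed cells 9 of the 69 rose and 19 fell (median log2 -0.051), where 28.9% of all genes rose and 24.9% fell. The difference was above zero for 35 and below zero for 0, against 4.20% and 7.17% over all genes. Cenpf had a log2 change of 0.37 in starved and -0.12 in fed cells (difference 0.50 ± 0.09, adjusted p = 0.002), and Cdc25b 0.36 and -0.039 (difference 0.40 ± 0.056). With upper quartile scaling the differences of Aurka and Kif20a no longer passed (adjusted p = 0.054 and 0.057). Replication genes counted 18 differences above and 1 below zero, and recombination genes 11 and 0, Brca1 among them (0.40 ± 0.073). Genes of lipid synthesis did the same, with 11 of 24 in cholesterol and 7 of 22 in fatty acid synthesis above zero. Scd1, a fatty acid desaturase, had log2 changes of 0.28 and -0.11 (difference 0.38 ± 0.061, adjusted p = 7.0e-04).

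**Figure D5:**
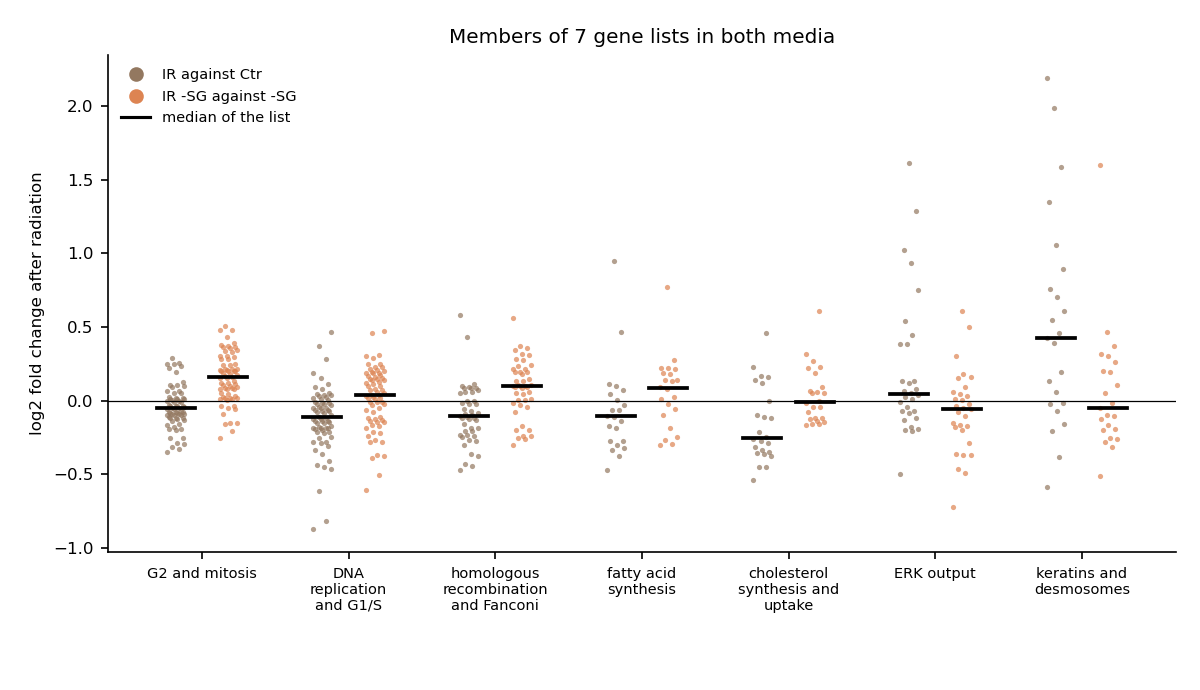
Log2 fold change after 5 Gy (vertical axis) of each tested member of 7 gene lists in fed cells (brown, IR against Ctr) and starved cells (orange, IR -SG against -SG), with the median of each list as a black bar. The medians of the mitosis list were -0.051 in fed and 0.16 in starved cells, and those of keratins and desmosomes 0.43 and -0.05.

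Differences below zero were frequent in the inflammatory and epithelial lists. Of the interferon-stimulated genes 61 rose in fed cells with a median log2 of 0.82, and 20 of 63 had a difference below zero, such as Ifi44 (0.80 in starved, 2.18 in fed cells, adjusted p = 0.0021). For chemokines it was 10 of 22. Cxcl5 read 175, 152 and 149 in Ctr and 451, 366 and 417 in IR cells, a rise with a log2 of 1.37 that the starved libraries given above do not show (difference -1.32 ± 0.12, adjusted p = 4.8e-06). Il1a read 103, 120.1 and 111 and 355, 319 and 322 (difference -1.78 ± 0.13), and Tslp rose in fed and fell in starved cells (difference -1.40 ± 0.13). Krt14 and Krt19 did the same (log2 0.61 and 0.39 in fed cells, differences -0.89 ± 0.068 and -0.70 ± 0.077), as did Egr1 (0.44, difference -1.17 ± 0.15, adjusted p = 8.6e-05). Of the NF-kB list 18 rose in fed cells, and it had 4 differences above and 4 below zero. The 44 ATF4 targets had 5 above and 14 below. Cdkn1a had a log2 change of 0.073 in fed cells (adjusted p = 0.34), and the difference of -0.42 ± 0.087 passed (adjusted p = 0.0048).

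All 5 tested replication-dependent histone genes had a difference below zero, and 4 of them rose in fed cells. H1f2 read 77.4, 65.9 and 81.8 in Ctr and 164, 163 and 158 in IR cells, a 2.15-fold rise, against the fall in starved cells, a difference of -2.5 ± 0.18 on the log2 scale (adjusted p = 2.8e-07) and the widest of any gene of at least 100 normalized counts. H1f0, H2ax and Ung fell in both media, and by more without serine and glycine (differences -0.78 ± 0.045, -0.77 ± 0.11 and -0.80 ± 0.10). For H4c9 the call was lost without Ctr replicate 3, IR replicate 1 or 2 or IR -SG replicate 4, and for H2bc4 without 7 of the libraries in turn, Ctr 1 and 2, -SG 4, IR 2 and 3 and IR -SG 4 and 6.

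After H1f2, the 9 widest differences below zero among genes that averaged 100 normalized counts or more in their highest group were those of Serpinb9b (-2.28), Il1rl1 (-2.05), Mab21l4 (-1.96), Scara5 (-1.89), Plekhs1 (-1.80), Dsg3 (-1.78), Il1a, Siglecg (-1.77) and Slc24a3 (-1.70). Mab21l4 and Scara5 were already high in starved cells before radiation, at 429 ± 28.5 and 408 ± 40.7 normalized counts against 40.9 and 18.2 in Ctr cells (means, ± SD where given, n = 3). Serpinb9b, Dsg3 and Slc24a3 were higher there too, at means of 83.0, 153 and 188 against 6.90, 2.78 and 29.8. The Ctr libraries of Dsg3 read 5.34, 2.13 and 0.88, so that its change in fed cells and its difference rest on counts near the floor. By the same limit the 10 widest above zero were narrower, from 0.69 for Lpin1, an enzyme of triglyceride synthesis, over Zbed6 (0.66), Pycr1 (0.64), Pgghg (0.63), Rbmx (0.59), Rtl10 (0.57), AI987944 (0.56), Kif24 (0.56) and Nsun6 (0.55) to Dennd4b (0.55). Several of these were near the threshold and lost the call without single libraries, Zbed6 without any of 9, Nsun6 without any of 10 and AI987944 without any of 6, as did Dsg3 without any of 7. Zbed6 read 1398, 1401 and 803 in the -SG libraries, replicate 6 being the low one. Pycr1, a proline synthesis enzyme and ATF4 target, is another kind of case, at 728, 743 and 749 in -SG and 697, 764 and 669 in IR -SG cells with overlapping groups, while in fed cells it fell from 212, 229.6 and 205 to 127, 123 and 149.

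Genes not annotated as protein-coding were measured too, since the libraries were made from total RNA. Of 2929 such genes that passed the same filter, 142 rose (4.85%) and 339 fell (11.6%). Processed pseudogenes, whose reads cannot be told from those of their parent genes, made up 246 of the falls and 1848 of the 2929 genes. With the GC and length correction 231 rose and 210 fell, so that the balance of rises and falls is not settled. Zfp469, listed as a long intergenic RNA gene in the GENCODE release used (559, 545 and 513 in -SG and 942, 938 and 837 in IR -SG cells, 1.68-fold), and D5Ertd605e (1.56-fold), another of that class, led the rises of at least 100 normalized counts, followed by ENSMUSG00000118671, a gene without a name or annotation there (log2 0.61 ± 0.16), Ccnb1-ps (1.46-fold), a copy of the mitotic cyclin described above, and AW112010 (1.45-fold). By the same limit, and with predicted genes left out, the largest falls were those of the pseudogenes Trmt112-ps2 (1.52-fold), Anp32b-ps1 (1.51-fold) and Eif1-ps1 (1.38-fold), and of Tmem250-ps (1.43-fold) and the antisense gene Rab26os (1.39-fold). The strand setting of the counting is not given in the sources used here, so that reads of an antisense gene may belong to its partner.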

How the data were processed

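RNA of 12 libraries (3 each of Ctr, -SG, IR and IR -SG; TruSeq stranded total RNA, NextSeq500) was sequenced and processed by the authors. Their notes name FastQC, HISAT2 and TopHat on GRCm38, featureCounts on Galaxy, DESeq2 and R 3.3.1. For the strand setting and the other versions nothing was found in the labels or the paper's methods. The deposited signal is a table of 20587 genes with each gene's count divided by 1 size factor per library. Whole reads could be recovered for 100% of the values (tolerance 0.001) and gave between 12540160 and 20066659 reads in genes per library.

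Groups followed the sample labels. The table's symbols were used, with biotype, GC content and length of the longest transcript from GENCODE M21 (20527 genes matched) and promoters from RefSeq (GRCm38.p6), matched by name for 9348 of 11663 tested genes (80.2%). Protein-coding genes that reached 10 normalized counts in 3 or more of the 12 libraries were tested, and 2929 other genes likewise. limma 3.58.1 in R 4.3.3 was fitted to log2(normalized count + 1) of all 4 groups with an intensity trend (8 residual and 7.93 prior degrees of freedom), with Benjamini-Hochberg adjustment at 0.05. The effect of radiation without serine and glycine, the effect with them and their difference (the interaction) came from that fit. It was also run on simulated data with few changed genes, changes larger than most seen here and no GC or length bias. That run therefore cannot speak to calls of small changes or to calls under such bias. Fold changes understate those of low genes because of the pseudocount of 1. The p-values rest on a spread for each gene that was pooled over the libraries within all 4 groups and drawn towards a trend over genes. All 12 libraries came from one experiment. With only the groups compared in the fit, 4034 genes were called in starved cells in place of 5028.

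Genes were named by a rule: the 15 largest rises and 15 largest falls that passed the test, if the higher group averaged 100 normalized counts or more and the libraries of the groups did not overlap, the 10 largest in each direction for the difference and the 5 largest for other genes, predicted genes left out, up to 8 members of a list with the largest change and up to 4 against it, and Cdkn1a, Trp53, Atf4 and Nfe2l2. Some further members (Cgas, Irf3, Mdm2, Phgdh, Shmt2, Cxcl5, Il1a, Myc, Brca1, Fn1, the promoters shown and others) were named for their role after their values were seen. The gene lists and members were chosen with earlier results of these data known. Alternatives were other pseudocounts, filters, scalings, a GC and length correction, a replicate block, leaving out each library, edgeR 4.0.16 and DESeq2 1.42.0 on the recovered reads, and a 2-fold limit. The replicate numbers did not pair the libraries.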

Additional observations from a re-analysis of the deposited data

Results flagged for a closer look

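The effect of radiation differed between the media for 1326 genes by the interaction term of limma (adjusted p under 0.05), and the named genes among them are given here by their log2 difference, starved less fed. Among inflammatory and antigen presentation genes it was -0.75 for Icam1, -0.91 for C3, -1.04 for Zbp1, -1.10 for Rsad2, -0.56 for Gbp3, -1.39 for Ifi44, -0.35 for Ddx58, -0.41 for Tapbpl, -0.52 for Psmb8, -0.40 for Tapbp, -0.20 for B2m, -0.68 for Lgals9, -1.12 for Slc15a3, -1.77 for Siglecg and, in the other direction, 0.22 for Tnfaip3. Among secreted signals and their receptors it was -0.42 for Cx3cl1, -1.44 for Ccl5, -1.05 for Ccl2, -1.40 for Tslp, -1.11 for Cxcl1, -1.32 for Cxcl5, -1.78 for Il1a and -2.05 for Il1rl1.

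Among histone and repair genes the difference was -0.80 for Ung, -0.77 for H2ax, -0.78 for H1f0, -2.5 for H1f2, -1.17 for H4c9, -2.0 for H2aw, -1.48 for H2bc4 and -1.60 for H2bc21. The genes of division and replication were above zero, with 0.26 for Ccnb2, 0.23 for Aurka, 0.19 for Kif20a, 0.36 for Prc1, 0.50 for Cenpf, 0.29 for Ccnb1, 0.40 for Cdc25b, 0.39 for Bub1b, 0.56 for Kif24, 0.27 for Orc1, 0.30 for Mcm3, 0.27 for Mcm4, 0.28 for Mcm5, 0.40 for Brca1 and 0.29 for Rad54l. Those of lipid synthesis were too, with 0.29 for Fasn, 0.38 for Scd1, 0.30 for Scd2, 0.69 for Lpin1 and 0.49 for Slc25a1.

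Among p53 targets, growth and stress genes the difference was -0.42 for Cdkn1a, -0.84 for Fas, -0.49 for Bbc3, -0.52 for Sesn2, -0.28 for Ccnd2, -0.43 for Trib3, -0.53 for Ddit4, 0.42 for Asns, 0.64 for Pycr1, -0.42 for Nupr1, -0.88 for Ppp1r15a, -1.17 for Egr1, -0.41 for Myc, -0.51 for Jund, -0.57 for Dusp4 and -0.65 for Otud1. Among keratins and surface or matrix genes it was -0.89 for Krt14, -1.55 for Krt16, -1.69 for Krt17, -0.70 for Krt19, -1.78 for Dsg3, -0.47 for Adamts4, -0.49 for Adamts1, -1.31 for Plat, -0.50 for Mmp9, -0.34 for Adam8, -0.98 for Scube3 and -0.91 for Tns1. The remaining genes were Serpinb9b (-2.28), Mab21l4 (-1.96), Scara5 (-1.89), Plekhs1 (-1.80), Slc24a3 (-1.70), Zbed6 (0.66), Pgghg (0.63), Rbmx (0.59), Rtl10 (0.57), AI987944 (0.56), Nsun6 (0.55) and Dennd4b (0.55). Without single libraries the call of the difference was lost for AI987944, Adamts4, Aurka, Bbc3, Dsg3, H2bc4, H4c9, Jund, Nsun6, Orc1, Rad54l, Rsad2, Sesn2, Zbed6 and Zbp1, and under other settings it was also lost for Kif20a and Rtl10, while DESeq2 gave no adjusted p for that of H2aw.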

How the results depend on the processing

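No called value of a named gene changed sign under any alternative, but the balance of rises and falls turned for some groups of genes, among them p53 targets with upper quartile scaling, mitochondrially encoded genes without -SG replicate 6 and genes annotated as other than protein-coding (other genes) with the GC and length correction, as given in the report. With a change of at least 2-fold also asked for, 241 genes were called in starved cells (225 rose, 16 fell), 734 in fed cells (728 and 6), 161 for the difference (0 higher, 161 lower) and 64 other genes (42 and 22). By that limit 3 interferon-stimulated genes, 2 NF-kB genes and 3 matrix protease genes rose, and 0 genes of mitosis, MHC class I, the lysosome or TGF-beta rose, and 0 ATF4 targets, ribosomal protein genes (cytosolic or mitochondrial), ribosome biogenesis genes or synthetase genes fell. The difference between media depended on the GC and length correction (2142 genes, 866 higher and 1276 lower; with a replicate block 2059 and 826 higher), on -SG replicate 6 (2054 without it) and on the scaling (285 higher with the upper quartile). Leaving out 1 library at a time gave between 947 and 2054 genes with a difference. Leaving out 1 library at a time gave between 301 and 847 genes with a difference above zero. Other genes numbered 265 at a mean of at least 100 normalized counts (46 rose, 219 fell) and 312 with DESeq2 (91 and 221), while the GC and length correction gave 231 and 210, and 226 and 198 with the block. Leaving out 1 library at a time gave between 93 and 142 other genes that rose. With only the groups compared in the fit 29 mitochondrial ribosomal protein genes fell. The CHR share of mitosis promoters was 67.2% in the whole window.

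The replicate numbers did not pair the libraries, since the deviations of same-numbered -SG and IR -SG libraries correlated at 4.9e-05, -0.081 and -0.094 and no library matched its own number best. With a replicate block 4637 genes were called in place of 5028 and 985 in place of 1326 for the difference. edgeR and DESeq2 on the recovered reads called 5138 and 4510 genes. The share of called genes that rose was between 47.9% and 62.3% across the settings other than the 2-fold limit, against 55.2%, and fell under 50% with TMM scaling and quantile normalization. Of the values of single named genes under all alternatives, 93 lost and 27 gained the call of the effect and 4535 kept their side of the threshold. With 3 libraries a group, counts below about 40, as for most of the tested replication-dependent histone genes, leave wide errors.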
